A study of Homo sapiens with 16 samples.

Results

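The 10 genes described here encode subunits of the SWI/SNF (BAF) chromatin remodelling complexes: SMARCA4, SMARCA2, SMARCB1, SMARCC1, SMARCC2, SMARCD1, ARID1A, ARID1B, PBRM1 and ACTL6A. They were chosen by symbol, and all 10 are among the 12676 genes of the deposited RNA-seq count table. The cells were H1299, an established line from a human non-small cell lung cancer, which is known to lack SMARCA4 protein. They were infected with lentivirus carrying either a non-targeting control shRNA (shCtrl, 2 libraries) or an shRNA against YEATS2 (shYEATS2, 2 libraries). YEATS2 is a histone acetylation reader in the ATAC acetyltransferase complex, and the comparison asked which mRNAs change in YEATS2 KD cells. Cells of both groups received virus in polybrene (8 µg/ml) for 48 h and then puromycin (2 µg/ml) for 4 to 7 days according to the labels, so the controls were infected and selected as well. All libraries came from the same cell line, and the study calls the duplicates biologically independent without saying in the labels whether they were separate infections. The study names the shRNA shY2-1 for its RNA-seq in duplicate, and the labels do not name it. It also reports RNA-seq with an independent shRNA, shY2-2, for which no library is labelled. Where both knockdown libraries carry the same shRNA, off-target changes cannot be told apart from those that follow loss of YEATS2.

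SWI/SNF complexes use the energy of ATP to slide or evict nucleosomes, which opens promoters and enhancers to the transcription machinery. Each complex is built around a single ATPase, SMARCA4 or SMARCA2, a core that is largely shared between forms, and subunits that define its type: ARID1A or ARID1B for canonical BAF, PBRM1 and ARID2 for PBAF, and GLTSCR1 or GLTSCR1L with BRD9 for the non-canonical form. The genes of this family are frequently mutated in human cancers, and ARID1A and SMARCA4 are among those often lost in lung cancer.

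The libraries held between 34718921 and 39417787 reads in listed genes. Counts were scaled to a common library size by the TMM method of edgeR, which assumes that most genes do not change, and the values below are such scaled counts unless another unit is named. YEATS2 itself had scaled counts of 4482 and 4104 in the shCtrl libraries and 665 and 673 in the shYEATS2 libraries, a log2 fold change of -2.68 (SE 0.10, FDR 0.000583, edgeR quasi-likelihood test, Benjamini-Hochberg adjusted), so the targeted mRNA was lower in both libraries labelled as knockdown. KRT8, KRT18, KRT7 and VIM are in the table and KRT19 and EPCAM are not, nor is any of 7 markers of blood, endothelial or fibroblast cells, in a table where every gene has more than 100 reads in at least 1 library. KRT7 was higher (log2 fold change 1.55) and KRT18 had a log2 fold change of -0.81 that was not called.

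For 7 of the 10 genes, RefSeq gives promoter windows on GRCh38.p14, each of 300 bases that lie mostly upstream of an annotated transcription start. SMARCC1, SMARCC2 and ACTL6A have no window in the table used. The windows below are those of the catalytic pair SMARCA4 and SMARCA2, which had the lowest counts, and of ARID1A and ARID1B, paralogs of which only ARID1A was called. For a gene with several windows the one richest in GC is shown: it is 1 of 2 for SMARCA4 and for ARID1B and 1 of 4 for SMARCA2. Capitals mark matches, on either strand, to any of 6 motifs: the GC box GGGCGG, the CCAAT box CCAAT, the TATA box TATAAA, the ETS motif CCGGAAG, the E-box CACGTG and the E2F motif TTTCCCGC. The sequences read 5′ to 3′ on the plus strand, which is the strand of all 4 genes.
SMARCA4, chr19:10960780-10961079: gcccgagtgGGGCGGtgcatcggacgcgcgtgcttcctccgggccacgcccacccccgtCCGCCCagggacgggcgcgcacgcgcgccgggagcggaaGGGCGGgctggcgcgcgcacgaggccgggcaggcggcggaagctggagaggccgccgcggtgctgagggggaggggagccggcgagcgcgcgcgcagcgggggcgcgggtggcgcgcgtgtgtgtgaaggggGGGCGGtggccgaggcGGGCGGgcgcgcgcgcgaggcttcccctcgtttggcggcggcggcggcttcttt
SMARCA2, chr9:2015097-2015396: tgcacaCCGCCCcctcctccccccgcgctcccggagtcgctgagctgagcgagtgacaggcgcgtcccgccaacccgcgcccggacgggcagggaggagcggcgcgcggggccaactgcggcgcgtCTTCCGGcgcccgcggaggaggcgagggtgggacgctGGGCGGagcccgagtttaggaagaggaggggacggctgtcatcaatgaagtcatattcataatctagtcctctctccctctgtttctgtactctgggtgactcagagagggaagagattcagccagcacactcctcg
ARID1A, chr1:26695765-26696064: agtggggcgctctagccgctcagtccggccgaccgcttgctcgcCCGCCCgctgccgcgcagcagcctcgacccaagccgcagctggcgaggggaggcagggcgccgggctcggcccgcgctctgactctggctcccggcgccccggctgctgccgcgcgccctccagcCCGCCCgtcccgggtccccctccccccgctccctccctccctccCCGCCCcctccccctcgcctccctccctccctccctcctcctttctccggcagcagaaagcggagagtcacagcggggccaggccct
ARID1B, chr6:156777128-156777427: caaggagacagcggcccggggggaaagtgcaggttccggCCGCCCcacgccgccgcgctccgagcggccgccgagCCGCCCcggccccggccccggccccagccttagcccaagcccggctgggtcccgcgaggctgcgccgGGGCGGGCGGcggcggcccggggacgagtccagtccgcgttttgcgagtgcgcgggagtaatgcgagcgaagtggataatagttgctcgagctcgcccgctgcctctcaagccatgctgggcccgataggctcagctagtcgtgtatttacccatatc

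All 4 windows hold GC boxes, the kind of element bound by Sp-family factors. The GC content, which chose the window for SMARCA4, SMARCA2 and ARID1B, was 81.3% for SMARCA4, 66.7% for SMARCA2, 78.0% for ARID1A and 72.0% for ARID1B. The median over 35116 RefSeq promoter windows was 58.7%. There were 5 GC boxes in the SMARCA4 window, 2 in SMARCA2, 3 in ARID1A and 4 in ARID1B, of which 2 overlap each other. A GC box occurs in 45.0% of all windows, so its presence does not set these promoters apart from each other or from many other genes. The SMARCA2 window also holds 1 ETS motif, which 10.3% of all windows hold. No TATA box, CCAAT box, E-box or E2F motif is in the 4 windows shown. These motifs occur in 11.5%, 34.6%, 7.26% and 1.63% of all windows, respectively. The windows not shown for these genes are poorer in GC, at 57.0% for SMARCA4, 43.0% to 48.7% for SMARCA2 and 37.7% for ARID1B, and none of them holds a GC box. Of these, 1 SMARCA2 window holds a TATA box and the ARID1B window a CCAAT box. A match is a description and no evidence that a factor binds.

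In YEATS2 KD cells the mRNA of 2 of the 10 subunits, ARID1A and ACTL6A, was lower and that of none was higher at an FDR under 0.01 in the quasi-likelihood test of edgeR (Benjamini-Hochberg adjusted). In bulk RNA, less mRNA per cell and fewer cells that express a gene cannot be told apart. Among all 12676 genes, 12.5% were called lower and 12.9% higher by the same test. At an FDR under 0.05, 2 subunits were lower and 4 higher (SMARCA4, SMARCA2, SMARCC1 and SMARCD1), against 23.8% and 24.4% of all genes. At an unadjusted p under 0.05 the counts were again 2 lower and 4 higher, against 27.8% and 28.7% of all genes. With 10 genes, 2 lower calls are close to the share found among all genes. The count of higher calls at an FDR under 0.01 was 1 with DESeq2, 2 with the exactTest function of edgeR and 0 with limma-trend, where 17.0%, 20.5% and 13.0% of all genes were called higher. The same tools called 2 of the 10 subunits lower each, against 17.3%, 19.7% and 12.8% of all genes. In 4 subunits both knockdown libraries lay below both controls and in 5 they lay above, which held for 39.8% and 39.7% of all genes. The median log2 fold change of the 10 genes was 0.02, against -0.0019 for all genes.

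**Figure D1:**
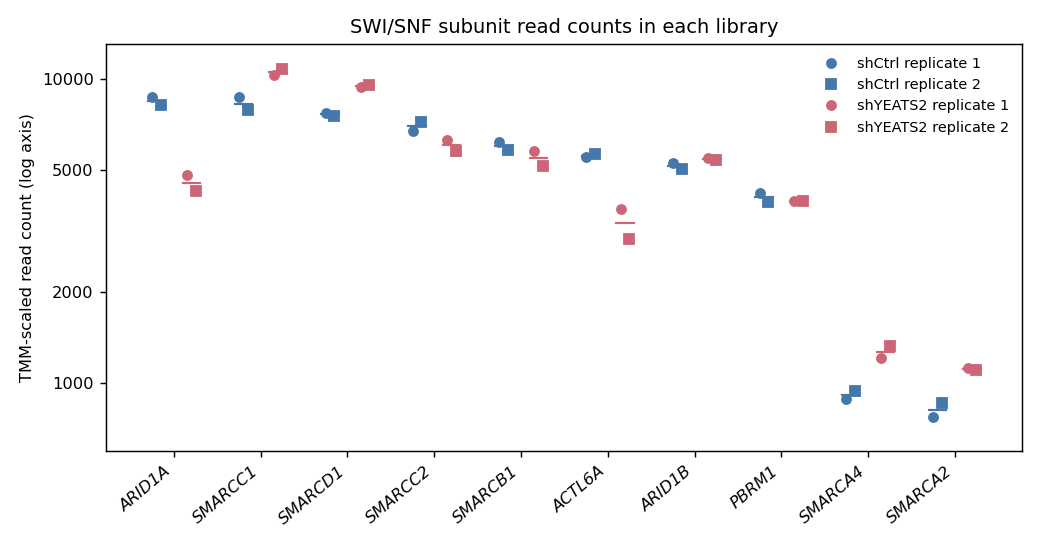
TMM-scaled read count of each of the 10 subunits (log axis) in the 2 shCtrl and the 2 shYEATS2 libraries, with a line at each group's mean and the genes ordered by their shCtrl mean. ARID1A and ACTL6A lie well below their controls, SMARCA4 and SMARCA2 are the lowest of all and lie above theirs, and the PBRM1 libraries overlap.

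ARID1A, the DNA-binding subunit of canonical BAF and a tumour suppressor, showed the largest change of the 10 genes. It is listed as ENSG00000117713 and lies on the plus strand at chr1:27019727-27108595 (GRCh37, as for all gene positions below). Its scaled count was 8700 and 8218 in the shCtrl libraries and 4812 and 4273 in the shYEATS2 libraries. Both knockdown libraries were far below both controls, with a gap much wider than the distance between replicates. Mean counts of 8459 ± 341 in control and 4542 ± 381 in knockdown cells (SD, n = 2 each) correspond to a level that fell by 46.3%. The log2 fold change was -0.90 (SE 0.10, 95% interval -1.14 to -0.65, FDR 0.00146, edgeR quasi-likelihood test, Benjamini-Hochberg adjusted). It ranged from -0.98 to -0.78 over 16 alternative settings and was called lower in each of them. A long noncoding RNA on the opposite strand overlaps 2.40% of the ARID1A exons and is not in the count table, and without strand its reads cannot be told apart from those of ARID1A.

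ARID1B, the paralog that takes the place of ARID1A in the same complex, lies at chr6:157097154-157531913 on the plus strand. Its scaled count was 5277 and 5059 in the controls and 5486 and 5410 in the knockdown libraries. The knockdown values were slightly above both controls, by less than the distance between the control replicates. Its log2 fold change was 0.08 (SE 0.09, FDR 0.503, the same test), with a 95% interval from -0.14 to 0.29. An increase of the size by which ARID1A fell lies outside this interval.

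ACTL6A encodes an actin-related protein of the complex that is also a subunit of the INO80, SRCAP and TIP60 complexes. It lies at chr3:179280674-179306195 on the plus strand, 4.11 Mb from YEATS2 on the same chromosome arm. The scaled count was 5518 and 5656 in the shCtrl libraries and 3737 and 2987 in the shYEATS2 libraries. Both knockdown libraries were below both controls, and they differed more from each other than the controls did. The means were 5587 ± 98.1 and 3362 ± 530 (SD, n = 2 each), so ACTL6A mRNA fell by 39.8%. The log2 fold change was -0.73 (SE 0.12, 95% interval -1.03 to -0.44, FDR 0.00454, edgeR quasi-likelihood test, Benjamini-Hochberg adjusted). It was -0.76 without shCtrl replicate 1 (FDR 0.0106) and -0.71 without shCtrl replicate 2 (FDR 0.0127), both just outside the threshold. Over all alternatives its FDR lay between 2.8e-06 and 0.0127. ACTL6A shares 123 exonic bases, 3.35% of its exons, with MRPL47 on the opposite strand, and the library kit does not keep strand. MRPL47 was itself lower (log2 fold change -0.66, FDR 0.00352, the same test), and its part in the ACTL6A value was not tested.

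The catalytic ATPases SMARCA4 and SMARCA2 hydrolyse ATP to move nucleosomes and are alternatives within the complex. SMARCA4 (chr19:11071608-11190102, plus strand) had scaled counts of 886 and 946 in the shCtrl libraries and 1210 and 1331 in the shYEATS2 libraries. SMARCA2 (chr9:1980290-2193624, plus strand) had 778 and 862 in the controls and 1127 and 1105 in the knockdown libraries. Both genes were thus higher in each knockdown library than in either control. SMARCA4 averaged 916 ± 42.7 and 1270 ± 85.6, and SMARCA2 averaged 820 ± 59.8 and 1116 ± 15.5 (SD, n = 2 each). The log2 fold changes were 0.47 (SE 0.11, 95% interval 0.21 to 0.73, FDR 0.0127) and 0.44 (SE 0.11, 95% interval 0.19 to 0.70, FDR 0.0158) by the edgeR quasi-likelihood test, Benjamini-Hochberg adjusted, both short of the threshold of 0.01. SMARCA4 passed it with DESeq2 (FDR 0.00632) and with scaling by library totals (FDR 0.00562, quasi-likelihood test). SMARCA4 also passed the threshold with exactTest on TMM scaling (FDR 0.00175). The study used exactTest, and its methods do not state the scaling. SMARCA2 passed the threshold with exactTest on TMM scaling (FDR 0.00362) and with library totals (FDR 0.00685, quasi-likelihood test), but not with DESeq2 (FDR 0.0119). Neither passed it with limma-trend at a prior count of 1 (FDR 0.0124 and 0.015). With each library left out, the log2 fold change was 0.40 to 0.54 for SMARCA4 and 0.37 to 0.52 for SMARCA2. SMARCA4 mRNA was thus detected in every library, with at least 823 reads. A read count says nothing of protein, which the line is known to lack.

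The core scaffold is formed by SMARCC1 and SMARCC2, paralogs that pair with each other or themselves. Their estimated log2 fold changes differed in sign, and the difference between the genes was not tested. SMARCC1 (chr3:47626759-47823596, minus strand) had scaled counts of 8695 and 7871 in the controls and 10295 and 10720 in the knockdown libraries. SMARCC2 (chr12:56556143-56583351, minus strand) had 6760 and 7223 in the controls and 6301 and 5796 in the knockdown libraries. The knockdown libraries lay above both controls for SMARCC1 and below both for SMARCC2, and in neither gene was the change called. The log2 fold change of SMARCC1 was 0.34 (SE 0.10, 95% interval 0.11 to 0.58, FDR 0.0263, edgeR quasi-likelihood test, Benjamini-Hochberg adjusted). That of SMARCC2 was -0.21 (SE 0.10, 95% interval -0.44 to 0.02, FDR 0.116), and it was -0.09 when libraries were scaled by their totals. SMARCC2 shares 719 exonic bases (7.83% of its exons) with MYL6 on the opposite strand. MYL6 had scaled counts between 23820 and 24930 and a log2 fold change of -0.01, and its part in the SMARCC2 value was not tested.

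SMARCD1, which links the core to transcription factors, lies at chr12:50478983-50494490 on the plus strand. It had scaled counts of 7707 and 7560 in the controls and 9360 and 9511 in the knockdown libraries. The replicates were tight and the groups well apart, and the log2 fold change of 0.31 (SE 0.09, 95% interval 0.09 to 0.52) had an FDR of 0.0280 in the edgeR quasi-likelihood test (Benjamini-Hochberg adjusted). SMARCB1, a core subunit whose loss defines malignant rhabdoid tumours, lies at chr22:24129118-24180196 on the plus strand. Its scaled count was 6203 and 5834 in the controls and 5793 and 5166 in the knockdown libraries, so the higher knockdown library nearly reached the lower control. This gave a log2 fold change of -0.14 (SE 0.10, 95% interval -0.38 to 0.11, FDR 0.299, the same test). SMARCB1 shares 2923 exonic bases (17.69% of its exons) with DERL3 on the opposite strand, which had scaled counts of 29 to 128. The log2 fold change of DERL3 was -1.45 (FDR 0.0164, the same test), and its part in the SMARCB1 value was not tested.

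PBRM1, the bromodomain subunit particular to PBAF, lies at chr3:52579368-52719933 on the minus strand. It had scaled counts of 4217 and 3951 in the controls and 3972 and 3975 in the knockdown libraries. Both knockdown values fell between the controls, the only case of overlap among the 10 genes. The log2 fold change was -0.04 (SE 0.09, 95% interval -0.26 to 0.18, FDR 0.739, edgeR quasi-likelihood test, Benjamini-Hochberg adjusted), and it was 0.08 when libraries were scaled by their totals.

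The direction of the small changes depends on the scale. With column totals in place of TMM the median over all genes moved from -0.0019 to 0.12 on the log2 scale, and the higher share of all calls from 50.8% to 67.0%. With column totals 2 of the 10 subunits were called lower and 4 higher, against 9.2% and 18.6% of all genes. The log2 fold changes were then 0.59 for SMARCA4, 0.56 for SMARCA2, 0.46 for SMARCC1 and 0.43 for SMARCD1. Each of these values is 0.12 above that on the TMM scale, the same amount by which the median gene moved. This follows from the scaling, which shifts all genes by about the same amount, and is not particular to these genes.

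**Figure D2:**
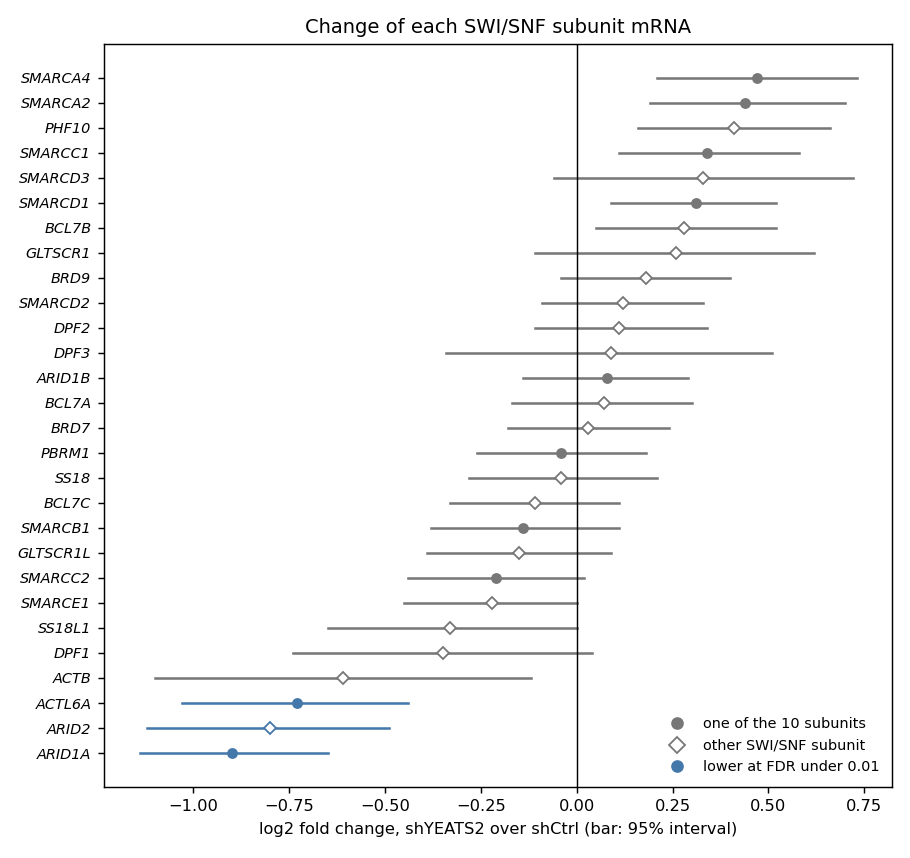
Log2 fold change of shYEATS2 over shCtrl with its 95% interval for the 10 subunits (filled circles) and 18 other SWI/SNF subunits (open diamonds), ordered by value, with genes lower at an FDR under 0.01 in blue. ARID1A, ARID2 and ACTL6A lie furthest to the left, and none of the 28 genes is called higher. On the scale of column totals PBRM1, SS18 and BCL7C change sign.

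Of 19 further SWI/SNF genes, 18 are in the table, and ACTL6B, the neuronal paralog of ACTL6A, is not. By edgeR's quasi-likelihood test at an FDR under 0.01, only ARID2 was called lower and none was called higher. Among all genes, 12.5% were called lower and 12.9% higher. At an unadjusted p under 0.05, 3 of the 18 were lower and 2 higher, against the 27.8% and 28.7% of all genes given above. DESeq2 and exactTest called 1 of them higher and limma-trend 0, again out of shares of 17.0%, 20.5% and 13.0% over the whole table. Lower calls numbered 2 with DESeq2, 1 with exactTest and 1 with limma-trend, against 17.3%, 19.7% and 12.8% of all genes. The median log2 fold change was 0.05. ARID2, the DNA-binding subunit of PBAF, had scaled counts of 6244 and 5975 in the controls and 3936 and 3076 in the knockdown libraries. Its knockdown libraries lay far below both controls, with a log2 fold change of -0.80 (SE 0.13, FDR 0.00410, edgeR quasi-likelihood test, Benjamini-Hochberg adjusted). Without shCtrl replicate 1 it was -0.77 with an FDR of 0.0106, and the range of its FDR over all alternatives was 5.66e-07 to 0.0106. Both ARID1A and ARID2, the ARID-domain subunits of BAF and PBAF, were therefore called lower and ARID1B was not, though the difference between these genes was not tested.

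Within PBAF, none of the other subunits particular to it was called. BRD7 had a log2 fold change of 0.03 and PBRM1 of -0.04, and PHF10 had 0.41 with an FDR of 0.0186 in the edgeR quasi-likelihood test (Benjamini-Hochberg adjusted). PHF10 was called higher with DESeq2 and with exactTest. Among subunits of the non-canonical form, the log2 fold change was 0.18 for BRD9, 0.26 for GLTSCR1 and -0.15 for GLTSCR1L, and none was called. The DPF subunits of canonical BAF had values of -0.35 (DPF1), 0.11 (DPF2) and 0.09 (DPF3). SMARCE1, a core subunit with an HMG domain, had a log2 fold change of -0.22, with scaled counts of 1612 and 1540 in the controls and 1362 and 1341 in the knockdown libraries. ACTB, the actin that partners ACTL6A in the complex, varied widely within groups, with 192288 and 145423 scaled reads in the controls and 131634 and 89612 in the knockdown libraries. Its log2 fold change of -0.61 had an FDR of 0.0459 in the same test, and its reads can be shared with actin pseudogenes. ACTB was called lower with DESeq2 and also without shYEATS2 replicate 1, where its log2 fold change was -0.91. The log2 fold changes of SMARCD2, SMARCD3, SS18, SS18L1, BCL7A, BCL7B and BCL7C lay between -0.33 (SS18L1) and 0.33 (SMARCD3), and none of these was called.

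To compare levels between genes, scaled counts were divided by exon length. Counted per kilobase of merged annotated exons, SMARCD1 (1557 ± 21.2, SD, n = 2) and ACTL6A (1523 ± 26.7) were the highest of the 10 in shCtrl cells, and their libraries overlapped. SMARCC1 (1086 ± 76.4), SMARCC2 (762 ± 35.6), ARID1A (531 ± 21.4), PBRM1 (423 ± 19.5) and SMARCB1 (364 ± 15.8) followed, each with both libraries below those of the gene before it. ARID1B stood at 113 ± 3.36, SMARCA4 at 58.8 ± 2.74 and SMARCA2 at 43.0 ± 3.13. The ATPases thus had the lowest mRNA levels per kilobase, and they held ranks 9 and 10 of the 10 also with the longest transcript or the coding exons as the length. Per kilobase of coding exons they stood at 164 ± 7.64 and 153 ± 11.2 and did not differ beyond the spread of the libraries. With all 4 libraries averaged they were above only 16.1% and 15.1% of 11435 genes, and SMARCD1 was above 90.3%. The positions of the ATPases depend on the length. SMARCA4 and SMARCA2 were above 36.2% and 28.6% of 12464 genes with the longest transcript, and above 21.4% and 15.5% with merged exons. With either of these lengths, each shCtrl value of SMARCA4 lay above each of SMARCA2.

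The order in the middle of the scale was not stable to the length used. With the longest transcript SMARCC2 (1374 ± 64.2) stood above SMARCC1 (1304 ± 91.6) in shCtrl cells, and their libraries overlapped. SMARCB1 was the 7th of the 10 in shCtrl cells per kilobase of merged exons, the 5th with the longest transcript and the 3rd with coding exons. Its merged exons cover 16526 bases and its coding exons 1468. For ARID1B, 45931 bases of merged exons stand against 7973 coding bases, so its level per kilobase of merged exons is low by construction. In YEATS2 KD cells ARID1A moved from the 5th to the 7th place per kilobase of merged exons, below PBRM1 and SMARCB1, and from the 6th to the 8th with coding exons. With the longest transcript it was the 6th in both groups. ACTL6A moved from the 2nd to the 3rd place with merged exons, from the 1st to the 2nd with the longest transcript and from the 2nd to the 4th with coding exons.

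**Figure D3:**
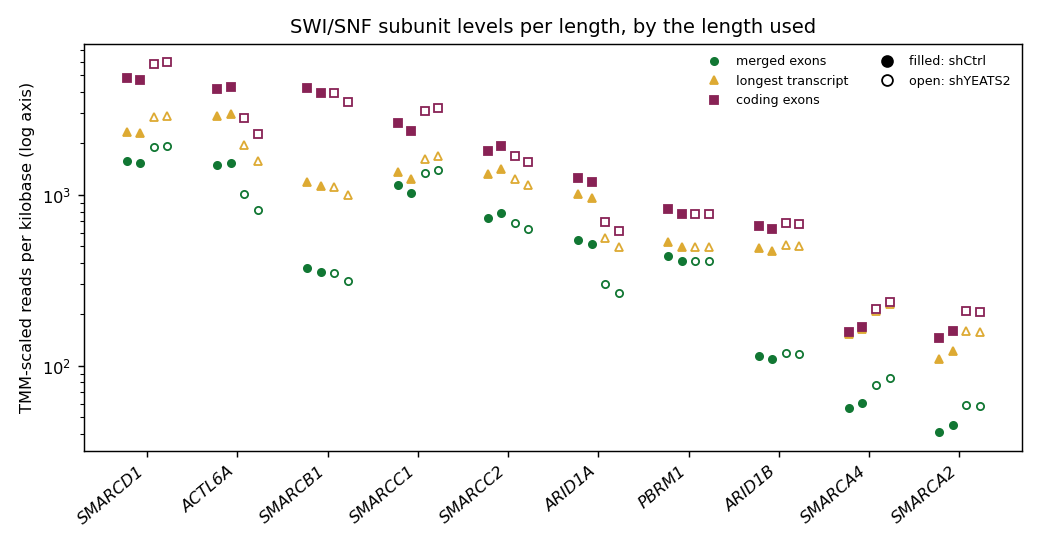
TMM-scaled reads per kilobase (log axis) of the 10 subunits in each library, with the length taken from merged exons (circles), the longest transcript (triangles) or coding exons (squares), filled for shCtrl and open for shYEATS2. SMARCA4 and SMARCA2 are the lowest under each length, and the place of SMARCB1 and ARID1B depends on the length.

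Shares within groups of paralogs do not depend on how the libraries are scaled, and they describe how the mRNA is divided among the listed paralogs. With 2 libraries against 2, a two-sided permutation test cannot go below 0.333, so the shares are given without a test. SMARCA4 made up 58.2% and 57.3% of the ATPase reads per kilobase of merged exons in the controls and 56.8% and 59.6% in the knockdown libraries. The groups overlapped, so the shares of SMARCA4 and SMARCA2 were alike in both groups while both counts were higher in the knockdown libraries. With coding exons as the length the SMARCA4 share was 52.2% and 51.2% in the controls and 50.7% and 53.6% in the knockdown libraries, again overlapping.

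The ARID group joins ARID1A and ARID1B with ARID2, a PBAF subunit that is not their alternative in canonical BAF. In this group the shares of the control and knockdown libraries lay apart. ARID1A held 46.9% and 46.6% of the reads per kilobase of merged exons in the controls and 40.9% and 42.3% in the knockdown libraries. ARID1B held 9.87% and 9.95% in the controls and 16.2% and 18.6% in the knockdown libraries. With coding exons, the ARID1A share went from 41.3% and 41.0% to 33.2% and 33.4%, and that of ARID1B from 21.8% and 21.9% to 32.9% and 36.7%. The groups did not overlap for either gene and either length. The ratio of ARID1A to ARID1B per kilobase of coding exons was 1.90 and 1.87 in the controls and 1.01 and 0.908 in the knockdown libraries, so the pair went from an excess of ARID1A mRNA to near parity on this scale. On merged exons the ratio was 4.75 and 4.68 in the controls and 2.53 and 2.28 in the knockdown libraries. The share of ARID1B was higher with a count of its own that was not called, while the ARID1A and ARID2 counts were lower.

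SMARCC1 made up 60.8% and 56.7% of the SMARCC reads per kilobase of merged exons in the controls and 66.3% and 69.0% in the knockdown libraries. With the longest transcript as the length it was 50.7% and 46.6% in the controls and 56.7% and 59.7% in the knockdown libraries. Which of the paralogs held more in the controls thus depends on the length. The SMARCC1 share was therefore higher in both knockdown libraries, although neither gene was called. The SMARCD1 share of the SMARCD group was 71.4% and 70.8% in the controls and 73.5% and 73.4% in the knockdown libraries. The shift was small, and SMARCD2 held most of the rest.

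**Figure D4:**
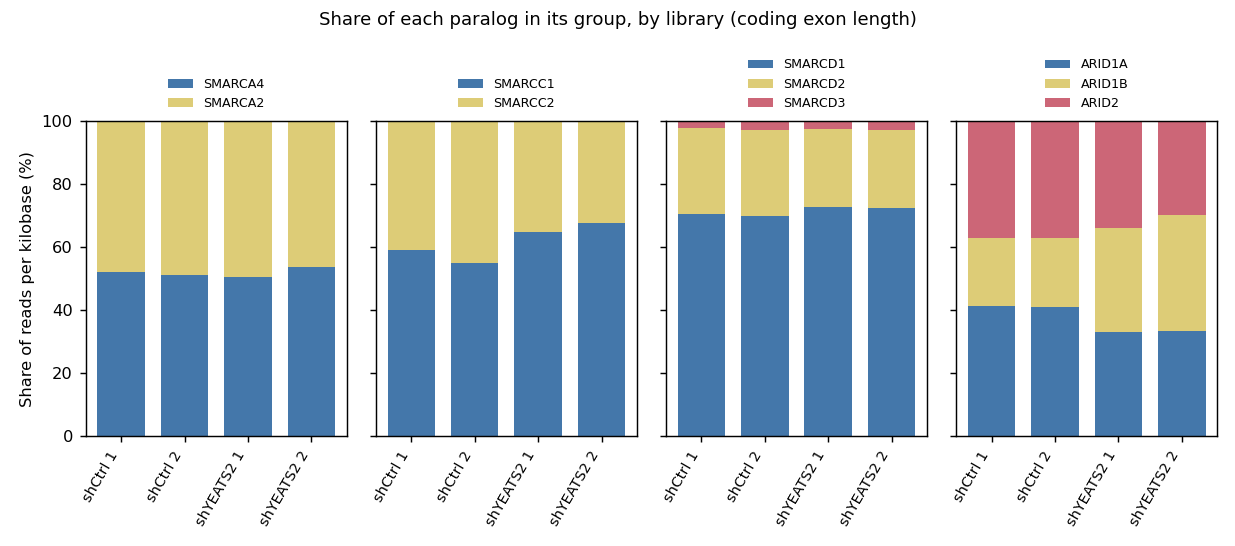
Share in percent of each paralog in its group, from reads per kilobase of coding exons, as stacked bars for the 2 shCtrl and the 2 shYEATS2 libraries. The SMARCA4 and SMARCA2 shares stay level, the ARID1B share grows from 21.8% and 21.9% of its group to 32.9% and 36.7%, and the SMARCC1 share is higher in both shYEATS2 libraries.

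Of 27 ATPases of other remodellers, 5 were called lower and 3 higher, with a median log2 fold change of 0.07. Both counts are near the 12.5% and 12.9% of all genes. The largest falls were in TTF2 (log2 fold change -1.59), HELLS (-1.56), and RAD54L and RAD54B, recombination factors tied at -1.34. The rises were in INO80 (1.05), CHD2 (1.04) and SRCAP (0.48). SMARCA4 and SMARCA2 lay close to SRCAP in size, at 0.47 and 0.44, and were not called. No test of the difference between the lists was made.

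ACTL6A also belongs to the INO80, SRCAP and TIP60 complexes, and 32 of their other subunits are in the table. Of these, 5 were called lower and 4 higher, with a median log2 fold change of 0.01, so the counts are near the 12.5% and 12.9% of all genes. INO80, SRCAP and EP400 are also in the list of ATPases above, and the calls of INO80 and SRCAP count in both lists. The largest falls were in ACTR5 (-1.10), an actin-related subunit of INO80, YEATS4 (-0.82) and RUVBL2 (-0.80), an ATPase shared by these complexes. ACTL6A, at -0.73, was of similar size. The largest rises were in MBTD1 (1.05), INO80 (1.05) and MORF4L1 (0.68).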

How the data were processed

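RNA-seq of H1299 cells was analysed from 2 shCtrl and 2 shYEATS2 libraries, and the ChIP-seq samples of the series were not analysed here. The authors mapped reads to the hg19 genome by RNA-Seq unified mapper according to the methods, whereas the submitters' processing notes name TopHat2 2.0.10, and deposited whole-number read counts per gene from HTSeq (0.6.1p1 in those notes), not normalized. The annotation used for counting is not given in the sources used here. The deposited table also holds the authors' own log2 fold changes, p-values and FDR values, which were not used. Libraries were grouped by their labels. The members and gene lists were chosen with earlier results of these data known.

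The filter for testing, 10 or more reads in 2 or more libraries, was met by all 12676 genes. Groups were compared with edgeR (4.0.16, R 4.3.3) by the quasi-likelihood test with TMM scaling (factors 0.952 to 1.05), no replicate block, Benjamini-Hochberg adjustment over all genes and an FDR under 0.01, the study's threshold. The SE is the log2 fold change divided by the root of F. The library totals of 34718921 to 39417787 reads and a biological coefficient of variation of 0.107 gave a median SE of 0.12. Replicates were not identical, with a chi-square per degree of freedom of 17.9 (shCtrl) and 38 (shYEATS2). Alternatives were DESeq2 (1.42.0), exactTest (the study's test), limma-trend (limma 3.58.1, prior counts of 1 and 10), other scalings and filters, a replicate block, an FDR under 0.05 and leaving out each library. In the fits without 1 library, the lone library of a group is assumed to vary like the others. Positions and exon lengths came from a GENCODE annotation of GRCh37, to which 12465 identifiers (98.3%) matched, and promoters from RefSeq on GRCh38.p14. Every member is named, with YEATS2 as the check of the labels, any of the other SWI/SNF subunits, and from each other list at most the 3 largest falls and 3 largest rises among its called genes. Marker genes of the line and of other cell types were looked up.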

Additional observations from a re-analysis of the deposited data

How the results depend on the processing

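ARID1A was called lower in all 16 alternatives and ACTL6A in 14, and YEATS2 kept its call in all 16. The counts of the 10 subunits were 2 lower and 0 higher, and limma-trend with both prior counts, DESeq2 size factors, the upper quartile, no filter and a mean count of at least 100 gave the same. Higher calls numbered 1 with DESeq2, 2 with exactTest, 4 with exactTest on column totals, 4 with column totals and 4 at an FDR under 0.05. Leaving out each library gave 1 to 2 lower (1 without either shCtrl library, where ACTL6A was lost) and 0 to 1 higher (SMARCA4 without shYEATS2 replicate 1). For the other SWI/SNF subunits, lower and higher calls were 2 and 1 with DESeq2, 2 and 1 at an FDR under 0.05, and 1 higher with exactTest, 2 with exactTest on column totals and 1 with column totals, and without each library there were 0 to 2 lower (0 without shCtrl replicate 1, 2 without shYEATS2 replicate 1). Higher calls among the remodeller ATPases numbered 6 with DESeq2, 6 with exactTest, 9 with exactTest on column totals, 6 with column totals, 5 with the upper quartile and 7 at an FDR under 0.05. For the INO80, SRCAP and TIP60 subunits, column totals gave 3 lower and 7 higher, exactTest 7 higher, exactTest on column totals 9 higher and an FDR under 0.05 8 higher. Without each library there were 2 to 5 lower and 2 to 5 higher, with 3 and 2 without shCtrl replicate 1, 2 and 2 without shCtrl replicate 2 and 3 and 3 without shYEATS2 replicate 2. Over all 12676 genes, exactTest called 2497 lower and 2596 higher (19.7% and 20.5%), and exactTest on column totals 1778 lower and 3464 higher. DESeq2 called 2190 lower and 2159 higher (17.3% and 17.0%), and the upper quartile gave 1602 lower and 1820 higher. Column totals gave 1166 lower and 2363 higher (9.2% and 18.6%), and an FDR under 0.05 gave 3011 and 3093 (23.8% and 24.4%). Leaving out each library gave 850 to 2024 lower and 775 to 1971 higher, with 850 and 775 without shCtrl replicate 1, 919 and 882 without shCtrl replicate 2 and 992 higher without shYEATS2 replicate 2. The log2 fold change turned positive with column totals, in both tests, for PBRM1 (0.08), SS18 (0.08) and BCL7C (0.01), and with each library left out it ranged from -0.08 to 0.00 for PBRM1 (0.00 without shCtrl replicate 1) and from -0.13 to 0.05 for SS18 (0.05 without shYEATS2 replicate 2). The cause of these differences was not tested.

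Same-numbered replicates deviated together (correlation 0.408 over 12100 genes), but 2 pairs do not establish pairing. With the replicate number as a block, 2 of the 10 subunits were lower and 3 higher, the other SWI/SNF subunits had 2 lower and 1 higher, the remodeller ATPases 7 higher, the INO80, SRCAP and TIP60 subunits 7 higher, and all genes 2715 lower and 2742 higher. The replicate block put the FDR of SMARCA4 at 0.00332, of SMARCA2 at 0.00601 and of SMARCC1 at 0.00990, and among the other subunits it put ACTB at 0.000335 and PHF10 at 0.00688 (edgeR quasi-likelihood test, Benjamini-Hochberg adjusted). With 2 libraries a group, replicate error rests on few samples, and genes under 100 reads in all libraries were not analysed here.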
